A study of Mus musculus with 8 samples.

Results

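Basement membranes are thin sheets of extracellular matrix built from type IV collagen, laminins, nidogens and the proteoglycan perlecan. The report covers 10 genes of this matrix: the type IV collagen chains Col4a1 and Col4a2, the associated collagens Col15a1 and Col18a1, the laminin chains Lama4, Lamb1 and Lamc1, the nidogens Nid1 and Nid2, and the perlecan gene Hspg2. They were taken by symbol from a list of basement membrane and pericellular matrix genes with earlier results of these data known, though the rule itself uses no measured value, and all 10 were found among the 50462 gene identifiers of the table. RNA-Seq libraries of medial knee cartilage caps came from male, wild-type C57BL/6J mice, 1 library per mouse. Of these mice, 4 were naive, without surgery, and were taken at day 0 at 11 weeks of age. The other 4 were taken at 17 weeks of age, 42 days after destabilisation of the medial meniscus (DMM) of the left knee, in which the ligament that holds the medial meniscus to the tibia is cut and osteoarthritis follows. No sham-operated mice were analysed here, so the operation and 6 weeks of ageing cannot be told apart. The comparison asks which of these genes differed between cartilage at day 0 and cartilage after DMM.

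In a basement membrane, laminin trimers of an alpha, a beta and a gamma chain assemble on the cell surface, type IV collagen trimers form a second network, and nidogens and perlecan bridge the networks. The trimer of collagen IV alpha chains encoded by Col4a1 and Col4a2 is the widespread form, found around blood vessels, muscle fibres, nerves and fat cells. Adult articular cartilage has no vessels and no continuous basement membrane, but its chondrocytes are wrapped in a pericellular matrix that is rich in perlecan and type VI collagen and in which laminin, nidogen and type IV collagen also occur.

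The libraries held 12479442 to 16548001 estimated counts each. The 10 genes together took 0.0703% to 0.130% of the counts in the naive libraries and 0.180% to 0.240% in the DMM libraries. The labels give the cell type as chondrocyte, and marker lists of several cell types moved between the groups. Summed chondrocyte markers, a list that holds the abundant Col2a1, took 0.239% to 0.437% of counts in the naive and 0.640% to 1.15% in the DMM libraries. Of these, 5 of 12 were called higher, with log2 fold changes from −0.36 to 1.41 and a median of 0.67. Bone cell markers took 0.103% to 0.177% and 0.270% to 0.546%, with 7 of 8 called higher. Soft-tissue fibroblast markers, a list that holds the abundant Col1a1 and Col3a1, took 0.833% to 1.28% in the naive and 2.41% to 3.49% in the DMM libraries, and 4 of 8 were called higher, with log2 fold changes from −0.35 to 2.02 and a median of 0.59. Neutrophil markers took 0.813% to 1.14% in the naive and 0.38% to 0.802% in the DMM libraries, with 7 of 7 called lower, and erythroid markers took 0.591% to 0.959% and 0.325% to 0.689%, with 5 of 6 called lower. No chondrocyte marker was at 0 in any library. The part of these shifts in the results below was not tested, and in bulk RNA a change in the number of cells of a type cannot be told apart from a change in RNA per cell.

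All 10 genes were higher after DMM. A gene was called where its adjusted P (DESeq2 Wald test, Benjamini-Hochberg) was at most 0.05 and the groups differed at least 1.5-fold, and all 10 passed in the direction of DMM. Over the 18422 genes tested, 13.2% were called in either direction, 7.47% higher and 5.7% lower in DMM. Log2 fold changes (DMM over naive) of the 10 ran from 0.62 for Nid1 to 1.82 for Col15a1 with a median of 1.04, beside a median of −0.01 over all genes tested. In 9 of the 10, every DMM library lay above every naive library, as was so for 11.6% of all genes tested. Nid1 was the exception. Scaling by total counts instead of median-of-ratios factors moved the median of all genes to 0.14 and the median of the 10 to 1.18, with all 10 still higher. That scaling also moved the share of called genes that were higher from 56.7% to 80.7%. Tested against a change of 1.5-fold rather than no change, 3 genes kept an adjusted P under 0.05, namely Col15a1, Col18a1 and Lamb1.

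**Figure D1:**
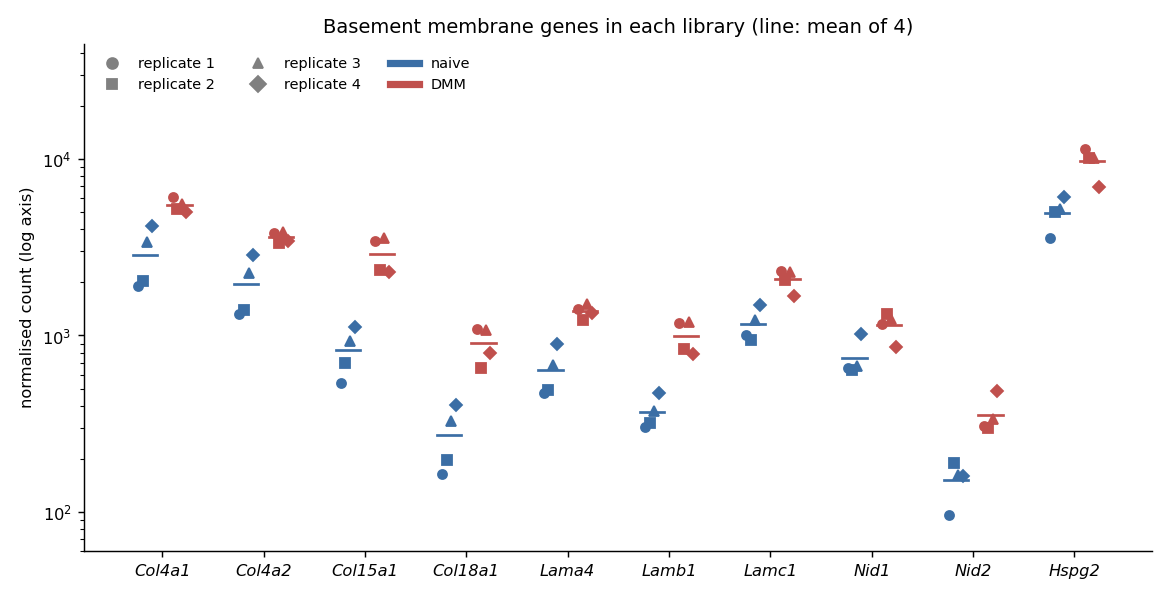
Normalised counts (log axis, estimated counts divided by size factors) of the 10 genes in each of the 4 naive and 4 DMM libraries. Points are libraries and lines are group means. The DMM points lie above all naive points for every gene except Nid1, where naive 4 lies above DMM 4.

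**Figure D2:**
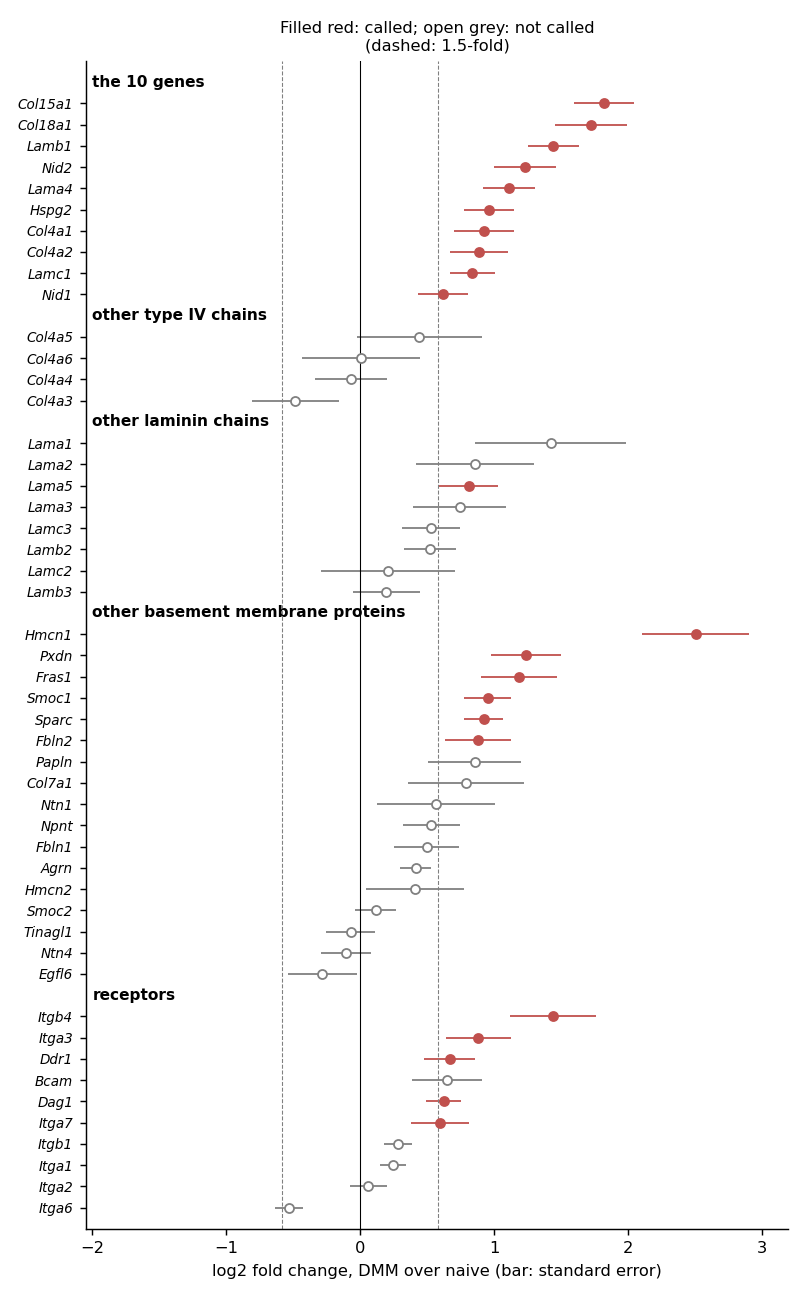
Log2 fold change (DMM over naive, DESeq2) with its standard error for the 10 genes, the other basement membrane genes and the receptors, filled where called. The 10 genes lie between 0.62 and 1.82, the remaining type IV collagen chains lie between −0.48 and 0.44, and Hmcn1 is the highest of the further genes at 2.51.

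Col4a1 (ENSMUSG00000031502; chromosome 8, 11198423 to 11312826, minus strand, GRCm38) and Col4a2 (ENSMUSG00000031503; chromosome 8, 11312805 to 11449287, plus strand) encode the chains of the widespread type IV collagen trimer, which holds more copies of the Col4a1 chain than of the Col4a2 chain. Their values here are normalised counts, that is estimated counts divided by the size factor of the library. Col4a1 stood at 1914, 2037, 3384 and 4176 in naive libraries 1 to 4 and at 6104, 5221, 5551 and 5007 in DMM libraries 1 to 4. The groups did not overlap, and naive 3 and 4 lay well above naive 1 and 2. The mean went from 2878 ± 1092 (SD, n = 4) to 5471 ± 478 (SD, n = 4), which is 1.90-fold (95% interval 1.40 to 2.57; log2 0.93, SE 0.22, adjusted P = 0.00053). Col4a2 stood at 1318, 1401, 2249 and 2856 in the naive and 3814, 3357, 3859 and 3437 in the DMM libraries, again without overlap. Its mean went from 1956 ± 733 to 3617 ± 257 (SD, n = 4 each), 1.85-fold (95% interval 1.37 to 2.49; log2 0.89, SE 0.22, adjusted P = 0.00077). Naive libraries spread much more than DMM libraries for both genes, with coefficients of variation of 37.9% and 37.5% against 8.73% and 7.09%.

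The pair moved together between the groups and among the naive libraries. The ratio of Col4a1 to Col4a2 estimated counts was 1.45, 1.45, 1.5 and 1.46 in the naive and 1.6, 1.56, 1.44 and 1.46 in the DMM libraries. It thus stayed between 1.44 and 1.6, while the normalised counts of each gene varied more than 2-fold among the naive libraries alone. Among the DMM libraries each gene varied little, with a highest value 1.22 times the lowest for Col4a1 and 1.15 times for Col4a2. Their highest DMM libraries differed, DMM 1 for Col4a1 and DMM 3 for Col4a2. On the log2 scale the ratio was 0.55 ± 0.02 before and 0.60 ± 0.07 after DMM (SD, n = 4 each), and the difference of 0.04 gave P = 0.371 in a two-sided exact permutation test over the 70 assignments of libraries to groups, whose smallest possible P is 0.0286 (adjusted P = 0.543 over the 6 ratios tested). Profiles over the 8 libraries were compared among 11014 genes, Col4a1 included. Podxl, which encodes the sialomucin podocalyxin, lay nearest to Col4a1, with a root mean square log2 difference of 0.0503. Col4a2 lay second at 0.0520. The median over all genes was 0.666. Kctd17 followed at 0.101, and among the 10 genes Lama4 came next, at 0.137 and rank 7, followed by Lamc1 at 0.204.

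Col4a1 and Col4a2 lie head to head, and their promoters are printed because the windows share bases. In the RefSeq windows on GRCm38.p6, from 250 bases before to 50 bases after the start of the transcript, the Col4a1 window (chr8:11312777-11313076, minus strand) and the Col4a2 window (chr8:11312555-11312854, plus strand) share 78 bases, chr8:11312777-11312854. The start sites are at 11312826 for Col4a1 and 11312805 for Col4a2, so the first 22 bases of the transcripts overlap on opposite strands. Capitals mark the shared bases, which read as reverse complements of each other.
Col4a1: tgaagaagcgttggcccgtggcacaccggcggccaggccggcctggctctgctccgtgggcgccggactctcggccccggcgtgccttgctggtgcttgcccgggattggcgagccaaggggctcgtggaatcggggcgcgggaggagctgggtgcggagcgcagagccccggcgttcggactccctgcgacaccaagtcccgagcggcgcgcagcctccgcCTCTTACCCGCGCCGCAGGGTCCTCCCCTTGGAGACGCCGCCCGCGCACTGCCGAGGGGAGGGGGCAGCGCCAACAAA
Col4a2: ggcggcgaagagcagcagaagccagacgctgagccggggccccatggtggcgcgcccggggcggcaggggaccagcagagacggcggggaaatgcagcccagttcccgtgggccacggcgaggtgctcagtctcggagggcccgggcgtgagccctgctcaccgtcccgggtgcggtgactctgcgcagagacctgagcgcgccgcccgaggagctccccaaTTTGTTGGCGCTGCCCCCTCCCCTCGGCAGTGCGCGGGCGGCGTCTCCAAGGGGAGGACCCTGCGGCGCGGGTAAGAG
The windows are rich in G and C, at 74.0% and 73.7%, where the median of all promoter windows is 52.7%. The letters of a GC box (GGGCGG, or CCGCCC for the other strand) occur 1 time in the Col4a1 and 3 times in the Col4a2 window, and those of a CCAAT box (CCAAT or ATTGG) occur 1 time in each. Of all 32851 windows, 35.7% hold a GC box, 9.85% hold 3 or more and 37.4% hold a CCAAT box. TATAAA, or TTTATA for the other strand, is in neither window and in 13.6% of all windows. The sources do not say if reads were counted by strand, and without strand those from the 22 overlapping bases cannot be assigned to either gene.

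The other 4 type IV collagen genes, which encode the chains of the more restricted trimers of kidney, lung, eye and skin, were scarce and did not pass. Mean normalised counts of Col4a3, Col4a4, Col4a5 and Col4a6 were 43.3, 39.3, 35.4 and 14.8 in the naive and 31.4, 37.7, 47.9 and 14.9 in the DMM libraries. Adjusted P values from DESeq2 were 0.312, 0.902, 0.574 and 0.994, and the groups overlapped for each. Per kilobase of exon, Col4a1 made up 54.6% to 56.1% of type IV collagen in naive and 55.2% to 58.1% in DMM libraries, and Col4a2 made up 42.0% to 42.9% and 40.9% to 43.2%. Each of the other 4 stayed at or under 1.03% in every library. Type IV collagen RNA in these caps was therefore almost wholly that of the widespread pair in both groups.

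Col15a1 and Col18a1 encode the multiplexins, collagens with interrupted triple helices that carry glycosaminoglycan chains and sit at the border of basement membranes with the surrounding matrix. Endostatin is cleaved from the end of the Col18a1 product, and the Col15a1 product carries a related domain. These genes had the largest fold changes of the 10. Col15a1 (ENSMUSG00000028339; chromosome 4, 47208161 to 47313167, plus strand) stood at 536, 702, 935 and 1119 normalised counts in the naive and 3426, 2348, 3571 and 2299.6 in the DMM libraries. The lowest DMM library was above the highest naive library, and DMM 1 and 3 were higher than DMM 2 and 4. The mean went from 823 ± 256 to 2911 ± 681 (SD, n = 4 each), 3.54-fold (95% interval 2.60 to 4.81; log2 1.82, SE 0.23, adjusted P = 6.75e-13). Col18a1 (ENSMUSG00000001435; chromosome 10, 77052178 to 77166548, minus strand) stood at 164, 197, 326 and 406 in the naive and 1082, 653, 1077 and 799.6 in the DMM libraries. The groups did not overlap, and the same DMM libraries, 1 and 3, were the high ones. Its mean went from 273 ± 113 to 903 ± 213 (SD, n = 4 each), 3.30-fold (95% interval 2.30 to 4.75; log2 1.72, SE 0.27, adjusted P = 1.73e-08).

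Col15a1 counts were 2.75 to 3.59 times those of Col18a1 in all 8 libraries. The log2 ratio was 1.63 ± 0.17 in naive and 1.69 ± 0.13 in DMM mice (SD, n = 4 each), a difference of 0.06 (exact permutation test, P = 0.543, adjusted P = 0.543). By profile over the 8 libraries, Col18a1 was the nearest to Col15a1 among the 11014 genes, which include Col15a1 itself. The root mean square log2 difference was 0.136. P4ha3, a subunit of collagen prolyl hydroxylase, followed at 0.150 and Matn2, a matrilin, at 0.173, where the median was 1.03. Col4a1 stood at rank 147 in that order, with a difference of 0.460. The DMM libraries spread more for the multiplexins than for the type IV pair, with coefficients of variation of 23.4% for Col15a1 and 23.6% for Col18a1.

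The promoters of the multiplexins are given because, unlike the type IV pair, these genes lie on different chromosomes and share no start region. The Col15a1 window is chr4:47207762-47208061 (plus strand, GRCm38.p6) and the first of 2 RefSeq windows of Col18a1 is chr10:77166481-77166780 (minus strand). Capitals mark GC boxes.
Col15a1: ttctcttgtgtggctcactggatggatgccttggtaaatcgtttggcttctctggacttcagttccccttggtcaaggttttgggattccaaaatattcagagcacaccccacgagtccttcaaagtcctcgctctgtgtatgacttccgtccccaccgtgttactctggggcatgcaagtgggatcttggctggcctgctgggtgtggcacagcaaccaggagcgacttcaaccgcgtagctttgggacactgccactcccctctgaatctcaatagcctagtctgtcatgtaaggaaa
Col18a1: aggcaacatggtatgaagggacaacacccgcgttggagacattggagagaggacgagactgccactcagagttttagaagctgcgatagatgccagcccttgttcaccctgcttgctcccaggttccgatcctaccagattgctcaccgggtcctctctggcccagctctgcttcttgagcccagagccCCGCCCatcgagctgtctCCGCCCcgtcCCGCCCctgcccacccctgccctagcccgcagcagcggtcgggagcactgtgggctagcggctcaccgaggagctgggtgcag
The Col15a1 window holds none of the 3 motifs, and G and C make up 52.3% of it. This window ends at 47208061, before the gene start at 47208161 in the annotation that gave the gene coordinates. The Col18a1 window holds 3 GC boxes and 1 CCAAT box with 63.3% G and C, and its second window, chr10:77113656-77113955, holds none of the motifs. The counts are per gene and do not separate transcripts from the 2 Col18a1 starts. Among the other genes with a window, the GC box occurs 5 times for Hspg2 (chr4:137468553-137468852), 2 times for Lamb1 and 1 time for Nid1, a CCAAT box occurs 1 time each for Lamb1 and Nid1, and TATAAA occurs in none.

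All 3 laminin chains rose. Lamc1 (ENSMUSG00000026478; chromosome 1, 153218922 to 153332786, minus strand) encodes the gamma chain found in most laminin trimers and was, per kilobase of exon, the most abundant laminin chain of the 10. It stood at 1011, 939, 1222 and 1488 normalised counts in the naive and 2307, 2066, 2294 and 1666 in the DMM libraries, 1.79-fold by the means of 1165 ± 246 and 2083 ± 299 (SD, n = 4 each; 95% interval 1.43 to 2.24; log2 0.84, SE 0.17, adjusted P = 2.00e-05). The groups did not overlap, but the gap from naive 4 to DMM 4 was narrow. Lamb1 (ENSMUSG00000002900; chromosome 12, 31265234 to 31329644, plus strand), a beta chain, stood at 303, 319, 372 and 469 in the naive and 1171, 834, 1189.5 and 782 in the DMM libraries. Its mean went from 366 ± 74.9 to 994 ± 216 (SD, n = 4 each), 2.72-fold (95% interval 2.10 to 3.52; log2 1.44, SE 0.19, adjusted P = 1.64e-11). It was the most steeply changed of the laminin chains among the 10, and the groups lay far apart. Lama4 (ENSMUSG00000019846; chromosome 10, 38965515 to 39110188, plus strand), the alpha chain typical of vessels, muscle, nerve and fat, stood at 475, 489.6, 683 and 892 in the naive and 1411, 1223, 1509 and 1334 in the DMM libraries, without overlap. Its mean went from 635 ± 196 to 1369 ± 121 (SD, n = 4 each), 2.16-fold (95% interval 1.66 to 2.81; log2 1.11, SE 0.19, adjusted P = 7.82e-07).

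Relative to Lamc1, Lamb1 was higher in every DMM library than in any naive library, but the difference did not pass adjustment. The ratio of Lamb1 to Lamc1 counts was 0.300 to 0.340 in the naive and 0.404 to 0.519 in the DMM libraries, without overlap, and the log2 difference of 0.59 gave P = 0.0286, the smallest the exact permutation test allows, but 0.171 after adjustment over the 6 ratios. For Lama4 to Lamc1 the log2 ratio was −0.90 ± 0.15 in naive and −0.60 ± 0.20 in DMM mice (SD, n = 4 each), a difference of 0.30 (exact permutation test, P = 0.0571, adjusted P = 0.171). Per kilobase of exon, Lamb1 made up 11.7% to 14.1% of the laminin beta chains in naive and 17.7% to 24.3% in DMM libraries, while Lamb2 made up 82.7% to 86.6% and 74.0% to 80.4%. Lamb2 was thus the main beta chain in both groups. It went from 1503 ± 457 to 2159 ± 284 normalised counts (SD, n = 4 each; log2 0.52, SE 0.20, adjusted P = 0.04), below the 1.5-fold limit and so was not called. Lama4 was the main alpha chain, at 52.3% to 58.3% of the alpha chains in naive and 55.4% to 66.4% in DMM libraries, and Lamc1 the main gamma chain, at 76.7% to 81.8% and 77.9% to 86.7%. For both of these shares the groups overlapped. The shares depend on the length used. With the longest transcript in place of all exons, the mean share of Lamb1 was 18.9% in naive and 30.2% in DMM libraries. Lamb2 then stood at 78.25% and 67.9%, Lama4 at 65.3% and 68.7% and Lamc1 at 79.3% and 82.4%, still the main chains.

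Of the other 8 laminin genes, 1 was called, Lama5, which was higher, where 7.47% of all genes tested were called higher. The median log2 fold change of the 8 was 0.64. Lama5, an alpha chain of epithelial and vessel basement membranes, went from 182 ± 46.6 to 320.0 ± 74.7 normalised counts (SD, n = 4 each; log2 0.81, SE 0.22, adjusted P = 0.00276), and the groups overlapped. Lama2, the alpha chain of muscle and nerve, stood at 174, 205, 377 and 566 in the naive and 733, 491, 744 and 429 in the DMM libraries and was not called (log2 0.86, SE 0.44, adjusted P = 0.157). All 8 had estimates above 0, from 0.20 to 1.42.

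The nidogens are the linkers between laminin and type IV collagen. Nid1 (ENSMUSG00000005397; chromosome 13, 13437551 to 13512269, plus strand) showed the smallest and least stable change of the 10. It stood at 649.9, 635, 675 and 1019 normalised counts in the naive and 1156, 1323, 1234 and 856 in the DMM libraries. The groups overlapped, with naive 4 above DMM 4. The mean went from 745 ± 184 to 1142 ± 203 (SD, n = 4 each), 1.53-fold (95% interval 1.19 to 1.98; log2 0.62, SE 0.19, adjusted P = 0.00804). Leaving out 1 library at a time, Nid1 was called in 3 of 8 fits, and without naive 1, naive 2, naive 3, DMM 2 or DMM 3 its fold change fell to between 1.45 and 1.49. The log2 fold change was 0.80 without naive 4. The other 9 genes were called in all 8 of these fits.

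Nid2 (ENSMUSG00000021806; chromosome 14, 19751265 to 19811787, plus strand) had the lowest level per kilobase of the 10. It stood at 95.9, 190.2, 162 and 159.9 in the naive and 305, 298, 336 and 482 in the DMM libraries, without overlap. The mean went from 152 ± 39.9 to 355 ± 86.1 (SD, n = 4 each), 2.35-fold (95% interval 1.72 to 3.21; log2 1.23, SE 0.23, adjusted P = 4.50e-06). DMM 4 held the highest Nid2 value and the lowest Nid1 value of the DMM libraries. The ratio of Nid1 to Nid2 accordingly varied widely, from 3.33 to 6.73 in the naive and from 1.77 to 4.44 in the DMM libraries, and the log2 difference of −0.61, beside SDs of 0.49 and 0.59, did not pass the test (exact permutation test, P = 0.229, adjusted P = 0.457). It was −0.32 without DMM 4 and −0.80 without naive 2. Nid2 shares 7.87% of its 31-base words with the gene Rtraf and Nid1 shares 4.05% of its words with other genes, which the counting could split, while no other gene of the 10 shares more than 0.511%.

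Perlecan, the product of Hspg2 (ENSMUSG00000028763; chromosome 4, 137468769 to 137570630, plus strand), is a heparan sulphate proteoglycan of basement membranes and the leading basement membrane component of the chondrocyte pericellular matrix. Hspg2 stood at 3563, 5019, 5223 and 6088 normalised counts in the naive and 11453, 10193, 10213 and 6973 in the DMM libraries. The groups did not overlap, although DMM 4 was only a little above naive 4. The mean went from 4973 ± 1048 to 9708 ± 1916 (SD, n = 4 each), 1.95-fold (95% interval 1.52 to 2.51; log2 0.97, SE 0.19, adjusted P = 9.69e-06). Its log2 ratio to Lamc1 was 2.09 ± 0.25 in naive and 2.21 ± 0.12 in DMM mice (SD, n = 4 each), a difference of 0.12 (exact permutation test, P = 0.486, adjusted P = 0.543).

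**Figure D3:**
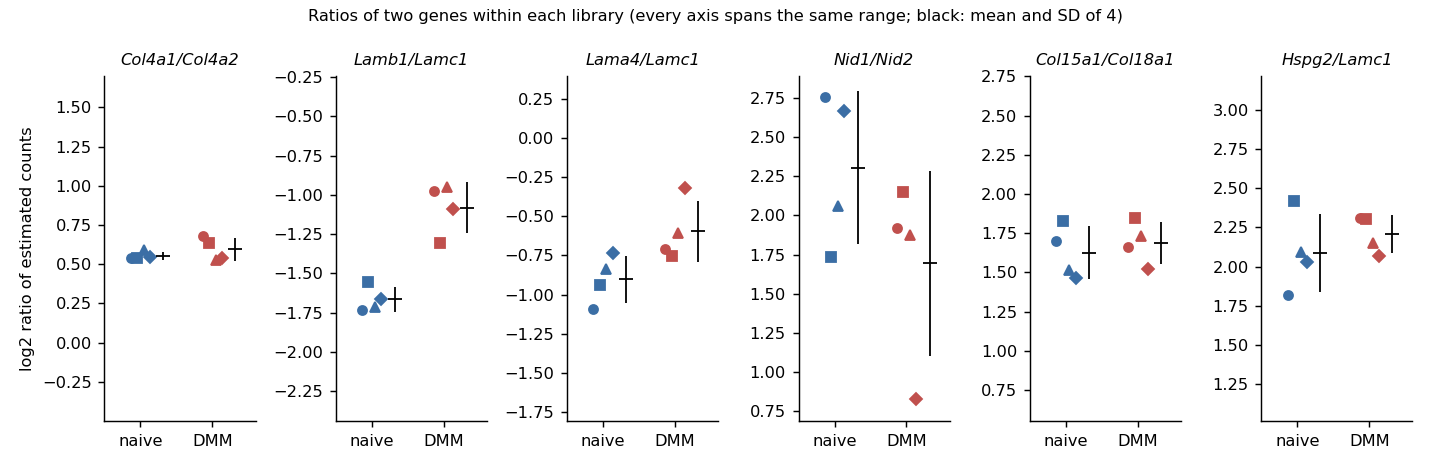
Log2 ratios of estimated counts for 6 pairs of basement membrane genes in the 4 naive and 4 DMM libraries. Points are libraries and bars are means ± SD. The groups are apart for Lamb1 to Lamc1 (naive −1.67 ± 0.08, DMM −1.08 ± 0.16) and overlap for Col4a1 to Col4a2, Col15a1 to Col18a1, Nid1 to Nid2, Lama4 to Lamc1 and Hspg2 to Lamc1.

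Levels can be compared between genes only per length. In normalised counts per kilobase of exon, Col4a1 was highest in the naive libraries at 386 ± 146 (SD, n = 4), followed by Hspg2 at 348 ± 73.2 and Col4a2 at 296 ± 111. These neighbours differed by less than their spread. Lamc1 at 141 ± 29.8, Col15a1 at 130 ± 40.4 and Nid1 at 107 ± 26.5 formed a middle range, again within their spread, and Lama4 at 52.6 ± 16.2, Col18a1 at 38.9 ± 16.1, Lamb1 at 36.9 ± 7.55 and Nid2 at 29.4 ± 7.71 were lowest. After DMM, Col4a1 at 733 ± 64.0, Hspg2 at 679 ± 134 and Col4a2 at 546 ± 38.8 still led. Col15a1 came next at 459 ± 107, above Lamc1 at 252 ± 36.2, and Nid1 stood at 165 ± 29.2. Col18a1 at 129 ± 30.3, Lama4 at 113 ± 10.0 and Lamb1 at 100.2 ± 21.8 lay within their spread of each other, above Nid2 at 68.6 ± 16.6. With the longest transcript in place of all exons, the means of Lama4 came to 105 in naive and 226.5 in DMM libraries and those of Lamb1 to 63.3 and 172, and Col4a1 and Hspg2 stayed first and second in both groups. By that length Col15a1 lay above Lamc1 in the naive libraries already, at 159 against 153, and in DMM libraries Col15a1, at 563, and Col4a2, at 561, differed by less than their spread.

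**Figure D4:**
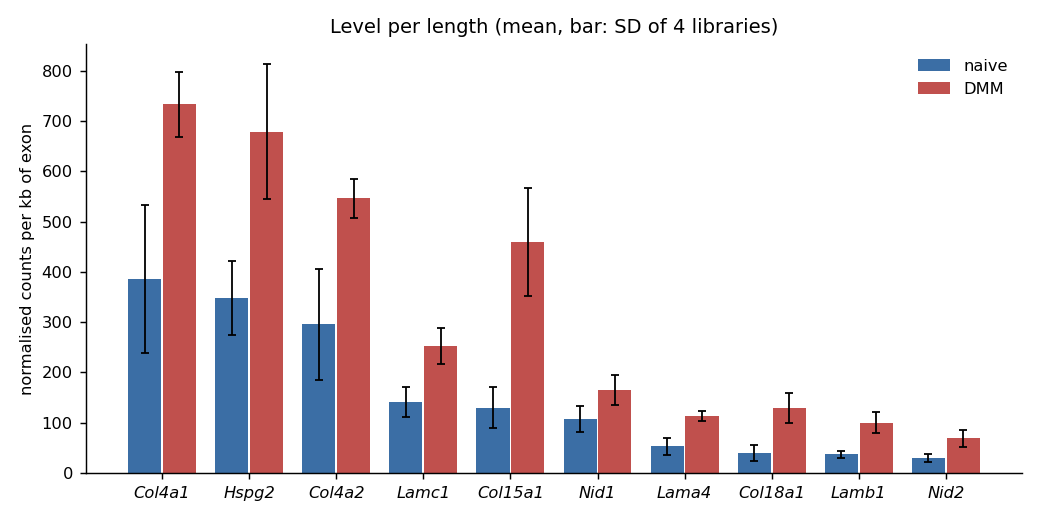
Normalised counts per kilobase of exon of the 10 genes in naive and DMM libraries. Bars are group means ± SD. By this length Col4a1, Hspg2 and Col4a2 are highest in both groups, and Col15a1 moves from 130 ± 40.4 to 459 ± 107.

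The 10 genes differed between naive mice more than most genes did. Among the naive libraries, the highest value was 1.55 to 2.47 times the lowest for the 10 genes, with a median of 1.93, where the median over the 11023 genes with a mean of 100 or more was 1.29. Among the DMM libraries the range was 1.15 to 1.66 with a median of 1.53, beside 1.30 over all genes. Naive 3 and 4 both lay above naive 1 and 2 in 9 of the 10 genes, Nid2 being the exception, and in 20.1% of the 11023 genes. This pattern was noticed after the values were seen. It was also present in 8 of 9 mural cell markers, 5 of 12 endothelial markers, 1 of 12 chondrocyte markers and 0 of 7 neutrophil markers. Single markers of the other lists were not counted. By summed share of counts, the mural, bone and muscle lists showed it and the other marker lists did not. The bone list stood at 0.123% and 0.103% in naive 1 and 2 and at 0.161% and 0.177% in naive 3 and 4. Of the fibrillar collagen genes, Col3a1, Col5a1 and Col5a3 showed it and Col1a1, Col1a2 and Col5a2 did not. Among the DMM libraries, DMM 4 was lowest in 6 of the 10 genes and in 30.0% of all genes.

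**Figure D5:**
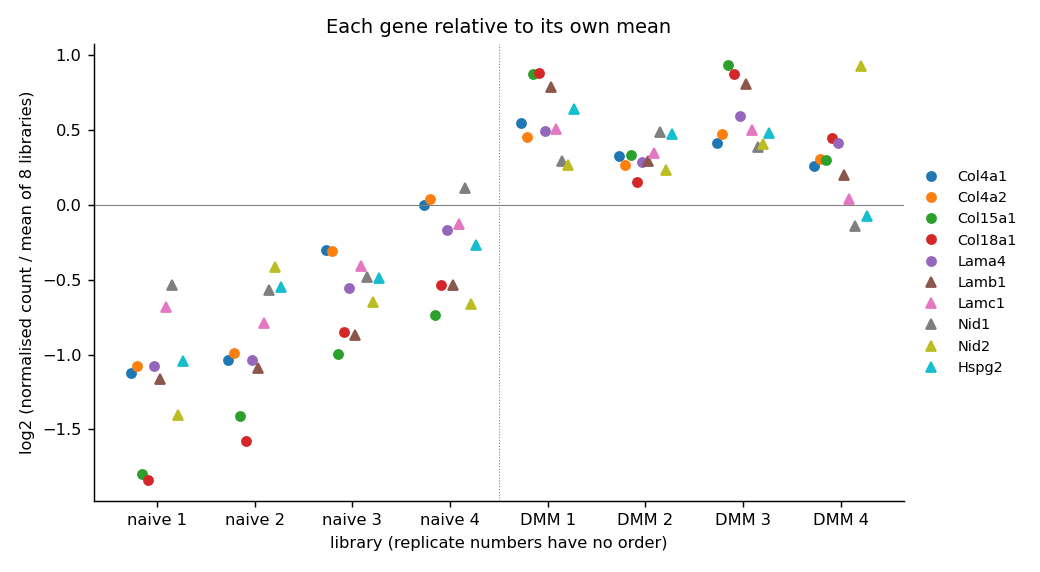
Log2 normalised count of each of the 10 genes relative to its mean over the 8 libraries, by library. Naive 1 and 2 are lowest for most genes, Col4a1 and Col4a2 lie together in every library, and Nid2 and Nid1 part in DMM 4.

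Vessels, muscle, nerve and fat carry basement membranes of these same chains, and the summed markers of vessel cells were also higher in the DMM libraries. Endothelial markers took 0.0478% to 0.0542% of counts in the naive and 0.0572% to 0.0655% in the DMM libraries, with P = 0.0286 in the exact permutation test, its smallest value. These shares are of total counts, a scaling by which the median log2 fold change over all genes was 0.14. Among the naive libraries the endothelial share was highest in naive 1, at 0.0542%, with naive 3 and 4 at 0.0518% and 0.0504%. Of 12 endothelial markers, 6 were called higher and 1 lower, with a median log2 fold change of 0.59. Cdh5, the endothelial cadherin, rose (log2 0.63, adjusted P = 5.82e-07), Vwf, which encodes von Willebrand factor, fell (log2 −0.72, adjusted P = 0.00207), and Pecam1, a junction protein of endothelium, was at log2 −0.03 (adjusted P = 0.931). Estimates were above 0 for 10 of the 12 endothelial markers, with Vwf and Pecam1 the exceptions. Mural cell markers, those of pericytes and smooth muscle, took 0.0224% to 0.0420% in the naive and 0.0578% to 0.0692% in the DMM libraries (exact permutation test, P = 0.0286), and 6 of 9 were called higher, with a median log2 fold change of 0.90. Among them were the pericyte gene Rgs5, at 945 ± 312 and 1892 ± 292 normalised counts (SD, n = 4 each; adjusted P = 9.32e-05), and the mural cell receptor Notch3 (log2 1.03, SE 0.16, adjusted P = 4.58e-08). Des (log2 0.44, adjusted P = 0.343), Abcc9 (log2 0.30, adjusted P = 0.117) and Kcnj8 (log2 0.27, adjusted P = 0.355) were not called. No endothelial or mural marker was at 0 in a library. The summed chondrocyte markers, given above, also did not overlap between the groups (exact permutation test, P = 0.0286), with 5 of 12 called higher. Of the other tissues with such membranes, adipocyte markers took 0.0174% to 0.0341% in the naive and 0.0202% to 0.0666% in the DMM libraries. All 6 adipocyte estimates were above 0, with a median log2 fold change of 1.1, and 4 had an unadjusted P under 0.05, but 0 of 6 were called by DESeq2, edgeR or limma-voom. For Schwann cells the shares were 0.00859% to 0.0123% and 0.00968% to 0.0121%, with 1 marker at 0 in a library, and for muscle 0.000443% to 0.00321% and 0.000391% to 0.00904%. The part of vessel cells and of chondrocytes in the change of the 10 genes was not tested.

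Of 20 further proteins of basement membranes, 17 had an adjusted P, 6 were called, all higher, with a median log2 fold change of 0.57. Hmcn1, which encodes hemicentin, a large protein of tissue junctions, changed most, with 199, 162, 241 and 345 normalised counts in the naive and 1826, 748, 1896 and 918 in the DMM libraries (log2 2.51, SE 0.40, adjusted P = 4.72e-08). DMM 1 and 3 were again the high libraries. Sparc, a collagen chaperone and matricellular protein that bone and cartilage cells also make, had by far the most counts and went from 36415 ± 5111 to 69002 ± 11492 (SD, n = 4 each; log2 0.92, SE 0.15, adjusted P = 7.16e-08). The related Smoc1 rose from 330.2 ± 56.4 to 639 ± 122 (log2 0.95, adjusted P = 4.21e-06). Pxdn, the peroxidase that crosslinks type IV collagen, rose as well (log2 1.24, SE 0.26, adjusted P = 7.20e-05), with 1 DMM library below naive 4, as did Fras1 (log2 1.19, adjusted P = 0.000527) and Fbln2 (log2 0.88, adjusted P = 0.00347). Agrn, the heparan sulphate proteoglycan agrin, was at log2 0.41 (adjusted P = 0.00356), and Smoc2, Ntn4 and Tinagl1 were at 0.12, −0.11 and −0.07. Over all 32 other basement membrane genes, of which 29 had an adjusted P, 7 were called, all higher. Of all genes tested, 7.47% were called higher. Without naive 4, 14 of these genes were called higher, and 13 with total count scaling. Over all genes, the number called higher also went up, from 1376 to 1655 without naive 4 and to 2035 with total count scaling.

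Cells bind this matrix through integrins, dystroglycan and other receptors. Of 10 receptor genes, 5 were called, all higher, with a median log2 fold change of 0.61. Dag1, which encodes dystroglycan, a laminin and perlecan receptor, went from 1003 ± 135 to 1544 ± 158 normalised counts (SD, n = 4 each; log2 0.62, SE 0.13, adjusted P = 5.70e-05). Itgb4, the beta chain of a laminin-binding integrin, was scarce and stood at 31.7, 54.5, 69.6 and 82.8 in the naive and 219.8, 105, 197 and 122 in the DMM libraries (log2 1.44, SE 0.32, adjusted P = 0.000149). Both differed without overlap between the groups. The laminin receptor chains Itga3 (log2 0.88, adjusted P = 0.00312) and Itga7 (log2 0.59, adjusted P = 0.0336) and the collagen receptor Ddr1 (log2 0.67, adjusted P = 0.00446) were also called. Itga6, the alpha chain that pairs with Itgb4, went the other way, from 1381 ± 84.5 to 955 ± 90.7 (SD, n = 4 each; log2 −0.53, SE 0.11, adjusted P = 2.18e-05), without overlap but within 1.5-fold. The receptor calls were less settled than those of the 10 matrix genes. Leaving out naive 1 left 2 called higher and leaving out DMM 3 left 3, and 1, Itga6, was called lower without DMM 3. Itga7 was called in 2 and Dag1 and Ddr1 in 6 of the 8 fits that leave out a library. The call of Itga7 was also lost with edgeR (adjusted P = 0.0628), without independent filtering (0.0631 by DESeq2) and with a replicate block (0.0934 by DESeq2).

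Some collagens of other families rose too. All 6 fibrillar collagen genes of types I, III and V were called higher, 5 of them without overlap between groups, with a median log2 fold change of 1.29 beside 1.04 for the 10 genes. Col5a3, the gene with overlap (log2 0.88, SE 0.29, adjusted P = 0.0158), was called in 2 of the 8 fits that leave out a library, and the other 5 in all 8. Col3a1 stood at 7806, 14013, 19288 and 25705 normalised counts in the naive and 80281, 45936, 98632 and 45793 in the DMM libraries. DMM 1 and 3 were the high libraries for Col3a1, as for Col15a1, Col18a1 and Hmcn1. Of 7 cartilage collagen genes of types II, IX, XI and XXVII, 4 were called higher, with a median of 0.77, and Col9a1 had an estimate below 0 (log2 −0.36, adjusted P = 0.834). Col2a1, the main collagen of cartilage, stood at 15101, 36986, 25885 and 17945 and 43988, 40178, 73292 and 97826, with DMM 3 and 4 the high libraries. The difference between these lists and the 10 genes was not tested.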

How the data were processed

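RNA-Seq libraries from 4 naive and 4 DMM mice were analysed, grouped by the treatment labels. The authors trimmed reads with Trimmomatic, quantified transcripts with Kallisto and summarised them to genes with Tximport, and the deposited table holds estimated counts, of which 39.0% are not whole. Estimated counts were rounded to whole numbers. The methods name GRCm38 with a later Ensembl release while the labels name a human build, and labels and methods name different library kits, so the build and kit are uncertain. Strand use was not stated. The table held 0 columns of other samples. Symbols were found for 48855 and GRCm38 coordinates (GENCODE vM21) for 48909 of 50462 identifiers. Promoters were from RefSeq, GRCm38.p6, with windows for 7 of the 10 genes.

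All 8 libraries entered 1 fit without covariates with DESeq2 (version 1.42.0 under R version 4.3.3; Wald test with default filters, scaling by median-of-ratios factors, unshrunken fold changes, Benjamini-Hochberg adjustment over all genes). Fold intervals are 95% Wald intervals. Ratios of estimated counts (0.5 added) and summed marker shares were compared by exact permutation. P-values measure the spread between mice. Profiles were compared over genes with a mean of 100 or more. Alternatives were edgeR (version 4.0.16), limma-voom (version 3.58.1), other scalings and filters, a replicate block and leaving out each library. On simulated data of 26189 genes for this comparison, 176 of 200 genes changed 2-fold were called, all in the right direction, and 28 unchanged genes were called. The 10 genes are all named with full values. From the lists of other basement membrane genes and receptors, the called genes, the remaining type IV collagens and those needed for a comparison are named. Only some genes of the marker lists and other collagen lists are named. Some of the named genes were chosen after their values were seen. Members and lists were chosen with earlier results of these data known. No 2 libraries of a group agreed within sampling noise (chi-square per degree of freedom at least 8.09).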

Additional observations from a re-analysis of the deposited data

Results flagged for a closer look

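In 4 of 80 sets of 4 values, 1 library lay apart from the other libraries of its group by Dixon's test, and chance gives about 1 in 20, or 4.0 here. Nid1 in naive 4 stood at 1019 normalised counts, where the other naive libraries lay between 635 and 675. The summed muscle markers stood at 0.00321% of counts in naive 3, beside 0.000443% to 0.000846% in the other naive libraries, and at 0.00904% in DMM 1, beside 0.000391% to 0.000960%. The summed erythroid markers stood at 0.689% in DMM 3, beside 0.325% to 0.343% in the other DMM libraries.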

How the results depend on the processing

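All 10 genes were called higher with edgeR, limma-voom, TMM factors, total count scaling, each of the other filters and the fit without a fold limit, and 9 to 10 when 1 library was left out, Nid1 being the gene lost. Against a change of 1.5-fold, 3 of the 10, 1 of the other basement membrane genes, 0 of the receptors, and 74 genes higher and 14 lower of all genes were called. With total count scaling 486 genes were called lower and 13 other basement membrane genes higher, and without a fold limit 1966 genes were called lower, among them 1 receptor, Itga6. Leaving out 1 library gave 987 to 1655 genes higher and 771 to 1248 lower, 7 to 14 other basement membrane genes higher, and 2 to 6 receptors higher and 0 to 1 lower. The replicate numbers did not pair the mice (correlations of deviations between same-numbered libraries from −0.18 to 0.10), and with a replicate block 10 of the 10 genes, 1135 genes higher and 941 lower were called, while the log2 value of Col4a6 turned to −0.0042. The sign of scarce type IV chains was not settled, with Col4a4 at 0.074 under total count scaling and −0.165 to 0.0152 when 1 library was left out, Col4a5 at −0.0090 to 0.986 and Col4a6 at −0.190 to 0.155. The 6 ratios kept their direction with each library left out, where no P was computed, with Lamb1 to Lamc1 at 0.54 to 0.66, Lama4 to Lamc1 at 0.21 to 0.36 and Nid1 to Nid2 at −0.80 to −0.32. The receptor Itga7 was lost with edgeR, without independent filtering and with the block. With 4 mice a group, an exact test cannot go below P = 0.0286. Why these results moved was not tested.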
